A study of Mus musculus with 4 samples.

Results

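The genes described here are 44 genes of distal mouse chromosome 16, from App to Hmgn1, a region whose gene content and order match human chromosome 21. Their expression was measured as a ratio in NIH 3T3 cells, a mouse fibroblast line, after RNA interference against Selt (now Selenot), the gene of selenoprotein T. The list was chosen by chromosome position with earlier results of the same arrays in view. The log ratios of both constructs against vector had picked out the genes from Cbr3 to Hmgn1 as high, so these ratios are given as a description, without p-values for the members. What chose no member is the contrast between the constructs, and that contrast was tested. Of the 44 genes, 38 had a probe among the 12347 named genes of the array, and 24 had a probe with a value on all 4 arrays, among 4754 such genes. These 24 are not all members: 14 others had values on some arrays and 6 (Hunk, Synj1, Clic6, Sim2, Kcnj6 and Erg) had no named probe.

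The cells carried, stably under hygromycin B, a plasmid with the U6 promoter. In the siSelT-1 cells it expressed a target sequence at nucleotides 205 to 224 of the Selt mRNA, and in the siSelT-5 cells one at nucleotides 971 to 989, while the vector cells carried pU6-m3 alone. All cells were selected with 150 µg/ml hygromycin and grown with 10% serum and 100 nM selenite. Each construct was compared with vector on 2 two-colour arrays, from separate knockdown cultures at different time points, with the knockdown RNA labelled with Cy5 on all 4 arrays. Whether stable cells were single clones or pools is not given in the sources used here, nor whether arrays shared vector RNA. A gene-specific dye effect is therefore not cancelled against vector but does cancel between the constructs. No probe was named for the targeted gene, so the knockdown was not checked. The base of the deposited log ratios is not stated. They were read as log2 and as knockdown over vector, and a reversed ratio would turn each direction against vector.

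Of 22534 probes, 7689 and 9232 had values with siSelT-1, and 20268 and 18361 with siSelT-5. All ratios below are log2 ratios after subtracting each array's median over the 7038 probes measured on all arrays, which was 0.19 and 0.09 for siSelT-1 and 0.43 and 0.36 for siSelT-5. Ratios carry no expression level, so the presence of fibroblast markers could not be checked. Of 12 such markers 8 were measured on all arrays. Over both constructs 2 were higher and 4 lower (limma, adjusted p under 0.05), beside 20.5% and 21.9% of all genes. With siSelT-1 0 were higher and 3 lower, beside 3.83% and 5.07% of all genes. With siSelT-5 3 were higher and 2 lower, beside 19.2% and 20.0%. In a bulk sample, fewer cells of a type and less RNA per cell cannot be told apart.

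Distal mouse chromosome 16 is best known from mouse models of trisomy 21, in which an extra copy raises the dosage of many of these genes together. Neighbouring genes on it need not share regulation, since most have their own promoters, but some are paralogues made by tandem duplication, such as the carbonyl reductase genes Cbr1 and Cbr3, and some are transcribed divergently from a shared region, such as Pigp and Ttc3. Carbonyl reductases reduce aldehydes and ketones with NADPH. Cbr3 is a target of NRF2, the transcription factor of the oxidative stress response, in human cells. Other members act in that response too: Sod1 is the cytosolic superoxide dismutase and Bach1 a repressor that competes with NRF2 for its binding sites.

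The promoter windows of 4 genes at the points on which the results turn are shown first. They are the first 2 genes of the raised run (Cbr3 and Dop1b), the shared region of Ttc3 and Pigp in its middle, and Get1, which lies just beyond its telomeric end. The windows are of 300 bases, from RefSeq (GRCm38.p6, plus strand), 5′ to 3′, at chr16:93682969-93683268 for Cbr3, chr16:93711657-93711956 for Dop1b, chr16:94370489-94370788 for Ttc3 and chr16:96145150-96145449 for Get1. Capitals mark matches, on either strand, to the antioxidant response element core TGACNNNGC or to the NRF1-type element, GCGCA and GCGC parted by any 1 base.
Cbr3: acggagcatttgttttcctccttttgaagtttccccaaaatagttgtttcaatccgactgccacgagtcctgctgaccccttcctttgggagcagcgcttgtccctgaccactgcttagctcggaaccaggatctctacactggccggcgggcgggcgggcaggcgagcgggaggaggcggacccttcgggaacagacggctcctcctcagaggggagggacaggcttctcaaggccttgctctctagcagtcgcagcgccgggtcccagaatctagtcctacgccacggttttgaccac
Dop1b: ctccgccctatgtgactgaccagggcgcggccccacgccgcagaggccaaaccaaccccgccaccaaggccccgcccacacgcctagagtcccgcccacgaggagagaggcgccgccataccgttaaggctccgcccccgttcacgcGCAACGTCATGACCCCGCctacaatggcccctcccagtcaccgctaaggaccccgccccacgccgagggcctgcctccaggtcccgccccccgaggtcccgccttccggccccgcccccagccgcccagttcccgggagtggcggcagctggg
Ttc3: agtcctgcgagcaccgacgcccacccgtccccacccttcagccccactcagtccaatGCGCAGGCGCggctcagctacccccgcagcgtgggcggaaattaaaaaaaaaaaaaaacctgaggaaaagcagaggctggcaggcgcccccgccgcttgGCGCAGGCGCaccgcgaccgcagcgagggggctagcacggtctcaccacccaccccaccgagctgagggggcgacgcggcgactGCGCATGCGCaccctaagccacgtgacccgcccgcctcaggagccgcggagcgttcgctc
Get1: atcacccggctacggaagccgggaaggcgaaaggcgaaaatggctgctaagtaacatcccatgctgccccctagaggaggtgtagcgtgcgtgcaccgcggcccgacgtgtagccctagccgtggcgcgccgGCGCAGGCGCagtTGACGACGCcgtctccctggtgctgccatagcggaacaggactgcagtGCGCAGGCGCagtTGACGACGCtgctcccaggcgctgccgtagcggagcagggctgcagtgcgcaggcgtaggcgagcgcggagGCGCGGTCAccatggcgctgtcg
The Cbr3 window held 0 matches to either motif, which says only that these letters are not in this window. The Dop1b window held 2 matches to the antioxidant core, abutting on opposite strands. The Get1 window held 3 antioxidant cores and 2 NRF1-type elements. The Ttc3 window held 4 NRF1-type matches, 2 of them the same palindrome read on both strands, and shared up to 288 bases with windows of Pigp on the opposite strand. Over all 32851 promoter windows of the table, 12.4% held the antioxidant core and 4.60% the NRF1-type element. Of the 25 genes formed by the tested members and Get1, 24 had a window. A gene can have more than 1 window, so the genes listed next cannot be set against these shares of single windows. Pigp and Ttc3 also share sequence and do not count as separate finds. The antioxidant core was found for App, Sod1, Dop1b and Get1, and the NRF1-type element for Paxbp1, Ifnar1, Pigp, Ttc3, Psmg1 and Get1. A match of letters is a description and not a binding site.

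Cbr3 (Entrez Gene 109857) had ratios of 3.00 and 3.06 with siSelT-1 and 1.41 and 2.13 with siSelT-5, the highest of the region on each array. Its means of 3.03 and 1.77 were also the highest of all 4754 genes in each construct. Averaged, these are 8.17-fold and 3.42-fold over vector. Each siSelT-1 array lay above both siSelT-5 arrays, and the difference of 1.26 (95% interval 0.58 to 1.93) did not pass the test (limma, adjusted p = 0.106). Cbr3 was represented by a single probe, and a probe of one carbonyl reductase can bind the transcript of its close paralogue.

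Dop1b (Entrez Gene 70028), next to Cbr3 and encoding a protein of Golgi and endosome traffic, was the second highest gene of the region with siSelT-1. Its ratios were 1.74 and 1.84 with siSelT-1 and 0.51 and 0.58 with siSelT-5. The difference of 1.24 (95% interval 0.89 to 1.59) had the smallest adjusted p of the members, 0.0755 in limma. A further Dop1b probe, measured on 3 arrays, stood at 1.34 on siSelT-1 replicate 1 and at -0.11 and -0.11 with siSelT-5. That probe was thus high with siSelT-1 as well, but not with siSelT-5.

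Morc3, which encodes an ATPase of nuclear bodies, interrupted the run. Its ratios were 0.29 and 0.15 with siSelT-1 but -0.84 and -1.08 with siSelT-5, so the constructs lay on opposite sides of the array centre. The difference was 1.18 (95% interval 0.77 to 1.58, limma adjusted p = 0.0768). Beyond it Chaf1b, a subunit of the histone chaperone CAF-1, had values with siSelT-5 alone, at -0.99 and -0.75. The claudin gene Cldn14 had 0.14 on siSelT-1 replicate 1, and 0.62 and -1.02 with siSelT-5. Hlcs, the enzyme that attaches biotin to carboxylases, had a single value, -1.54 on siSelT-5 replicate 2.

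Pigp and Ttc3, the divergent pair, did not move alike with siSelT-5. Pigp, of the enzyme complex that starts synthesis of GPI anchors, had 0.88 and 1.04 with siSelT-1 and 0.66 and 0.92 with siSelT-5, and the constructs overlapped. The difference for Pigp was 0.17 (95% interval -0.25 to 0.59). Ttc3, an E3 ubiquitin ligase, had 0.42 and 0.59 with siSelT-1 and -0.15 and -0.15 with siSelT-5 as the mean of 3 probes, a difference of 0.66 (0.29 to 1.02, limma adjusted p = 0.109). The 3 probes disagreed: one averaged higher than the gene (0.98 and 0.85 with siSelT-1, 0.26 and 0.25 with siSelT-5), one lay between (0.68 and 0.61, 0.29 and 0.22), and one stood at -0.40 and 0.32 with siSelT-1 and -1.01 and -0.94 with siSelT-5. The 6 other Ttc3 probes, with fewer values, had only negative siSelT-5 ratios. A second Pigp probe had a single value, -2.58 on siSelT-5 replicate 1.

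The next genes stood near the centre with siSelT-5. Vps26c, a subunit of the retriever complex that recycles membrane proteins from endosomes, had 0.74 and 0.52 with siSelT-1 and 0.12 and 0.01 with siSelT-5, a difference of 0.56 (95% interval 0.17 to 0.95, limma adjusted p = 0.126). Dyrk1a, the kinase gene much studied in trisomy 21, had 0.13 and 0.15 with siSelT-1 and 0.35 and -0.18 with siSelT-5, and formed a second gap in the run. A further Dyrk1a probe stood at 0.14 on siSelT-1 replicate 2, and at -1.26 and -1.18 with siSelT-5.

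The telomeric end of the run held 3 genes above 1 on both siSelT-1 arrays. The transcription factor gene Ets2 had 1.35 and 1.45 with siSelT-1 and 0.59 and 1.16 with siSelT-5 (difference 0.53, 95% interval -0.05 to 1.10). Psmg1, a chaperone of proteasome assembly, had 1.12 and 1.21 with siSelT-1 and 0.09 and 0.65 with siSelT-5. Its difference was 0.80 (0.23 to 1.36, limma adjusted p = 0.128). Brwd1, a bromodomain gene next to Psmg1, was not raised: it had 0.10 on siSelT-1 replicate 2, and -0.03 and 0.41 with siSelT-5. Hmgn1 (Entrez Gene 15312), a protein that binds nucleosomes, had 1.13 and 1.18 with siSelT-1 and 0.96 and 1.18 with siSelT-5. These correspond to 2.22-fold and 2.10-fold. The difference for Hmgn1 was 0.08 (95% interval -0.30 to 0.47), an interval that does not show equality.

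**Figure D1:**
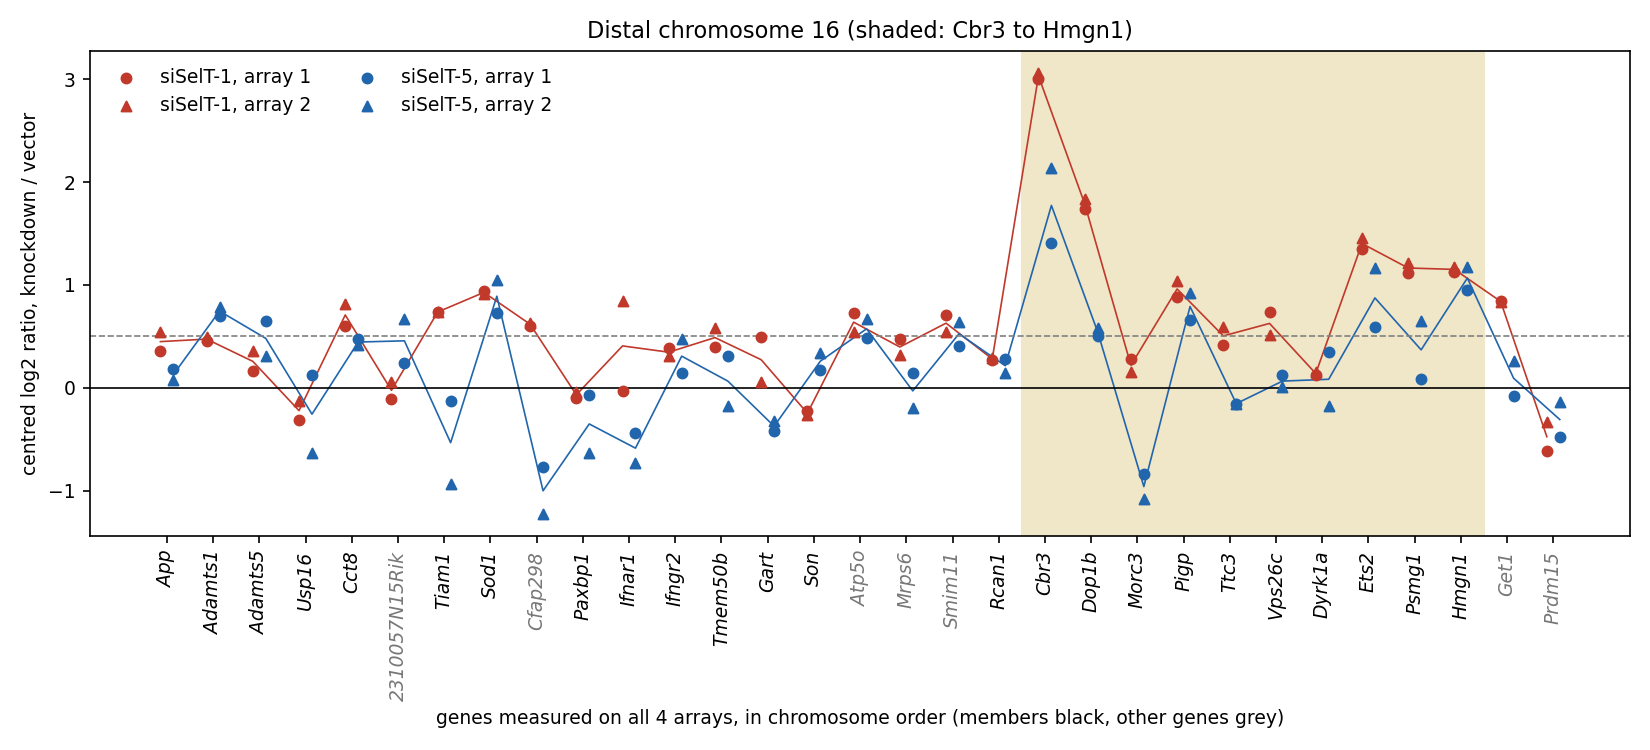
Log2 ratio of knockdown over vector (vertical axis, centred on each array's median) for the 31 genes of the region measured on all 4 arrays, from App to Prdm15 in chromosome order (horizontal axis). Red marks siSelT-1 and blue siSelT-5, circles replicate 1 and triangles replicate 2, lines the mean of 2 arrays, shading Cbr3 to Hmgn1 and the dashed line 0.5, and Cbr3 stands highest on each array.

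To place the ends, a gene was called raised in a construct when both of its arrays lay above 0 and their mean was at least 0.5. By that rule 272 of the 4754 genes (5.72%) were raised with siSelT-1, 646 (13.6%) with siSelT-5 and 151 (3.18%) with both. Of the 10 genes tested from Cbr3 to Hmgn1, 8 were raised with siSelT-1 and 5 (Cbr3, Dop1b, Pigp, Ets2 and Hmgn1) with siSelT-5, the 5 being among the 8. With siSelT-5 it was 6 without centring and 8 with all-values centring. Both settings lift the siSelT-5 ratios of every gene, and no share over all genes was counted for them. Because the run was singled out for these ratios, nothing is read from these counts and shares.

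The run was not unbroken in either construct. With siSelT-1 it fell into 3 stretches: Cbr3 and Dop1b, then Pigp, Ttc3 and Vps26c, then Ets2, Psmg1, Hmgn1 and Get1, parted by Morc3 and Dyrk1a. Only genes measured on all arrays were counted. Brwd1, between Psmg1 and Hmgn1, is thus left out of the last stretch, and it was not raised on the values it had. With siSelT-5 the single stretch of more than 1 gene was Cbr3 and Dop1b, and Pigp, Ets2 and Hmgn1 stood alone. If a mean of any size above 0 counted, the siSelT-1 stretch had no break over 15 tested genes, from Atp5o to Get1. The siSelT-5 stretch then covered 4, from Smim11 to Dop1b, and ended at Morc3.

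Whether the run started at Cbr3 depended on the rule. On its centromeric side the last gene measured on all arrays was Rcan1, an inhibitor of calcineurin. It had 0.27 and 0.29 with siSelT-1 and 0.28 and 0.15 with siSelT-5, and so was not raised. Of its 2 probes measured on all arrays, 1 stood at 0.77 and 0.69 with siSelT-1 and 0.38 and 0.44 with siSelT-5. A further Rcan1 probe had a single value, -1.30 on siSelT-5 replicate 2. Smim11 and Atp5o, tested neighbours of Rcan1 farther from Cbr3, were raised in both constructs. Mrps6, which lies between Smim11 and Atp5o, was raised in neither, at 0.47 and 0.32 with siSelT-1 and 0.14 and -0.20 with siSelT-5. The stretch that holds Cbr3 started at Atp5o with siSelT-1 when a mean of 0.25 sufficed, and at Smim11 with siSelT-5 without centring. With all-values centring Rcan1 stood at 0.93 and 0.70 with siSelT-5 and was raised. With siSelT-1 it stood at 0.28 and 0.32 and was not, so the start was not shared at that centring. Between Rcan1 and Cbr3 the annotation places 4 protein-coding genes, and 0 of them had a siSelT-1 value. Runx1, a transcription factor of blood cells, had -1.18 and -0.83 on one probe and -0.31 and -0.61 on another with siSelT-5. The methyltransferase gene Setd4 and Cbr1 had a single value each, -1.94 and -2.07 on siSelT-5 replicate 1. A start shared by both constructs at Cbr3 therefore holds for the rule of 0.5 with arrays centred on probes measured on all arrays. The genes between Rcan1 and Cbr3 could not place it more closely.

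At the telomeric end the values at Get1 differed, by an amount that depended on the centring. Get1, which encodes a receptor subunit for inserting tail-anchored proteins into the endoplasmic reticulum and is not a listed member, had 0.85 and 0.83 with siSelT-1 and -0.07 and 0.26 with siSelT-5. By the rule of 0.5, with arrays centred on probes measured on all arrays, the siSelT-1 run reached 1 gene beyond Hmgn1. Hmgn1 was then the last raised gene with siSelT-5. The difference at Get1, 0.75 (95% interval 0.31 to 1.18), did not pass in limma (adjusted p = 0.113), so unequal ends were not shown. It was 0.49 without centring and 0.16 with all-values centring (adjusted p = 0.418), under which Get1 stood at 0.58 and 0.82 with siSelT-5 and was raised in both constructs. The next gene measured on all arrays was the zinc finger gene Prdm15, at -0.61 and -0.34 with siSelT-1 and -0.48 and -0.13 with siSelT-5, below the centre on each array. Of the 11 protein-coding genes annotated between Get1 and Prdm15, 3 had a probe and 0 had a siSelT-1 value. Sh3bgr had -0.39 and 0.42 with siSelT-5 and the adhesion gene Dscam -0.68 and -1.55, and neither was raised.

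Genes centromeric of the run were higher than most of the array with siSelT-1, but far less so. Over the 10 genes from Cbr3 to Hmgn1 the median ratio was 1.00 and 1.11 with siSelT-1 and 0.43 and 0.62 with siSelT-5. Over the 19 genes tested from App to Cbr1, 5 of them not members, it was 0.39 and 0.49 with siSelT-1 and 0.18 and 0.15 with siSelT-5. Over the other 142 tested genes of chromosome 16 it was -0.04 and -0.02 with siSelT-1 and -0.10 and -0.12 with siSelT-5, and the construct means over all genes had medians of -0.00 (siSelT-1) and -0.02 (siSelT-5). For comparison, the medians of 20 whole chromosomes ran from -0.18 to 0.11 with siSelT-1 and from -0.15 to 0.07 with siSelT-5. Chromosome 16 as a whole stood at 0.05 and -0.08. With genes admitted that had a value on at least 1 array of each construct, the App to Cbr1 median stood at 0.28 (siSelT-1) and -0.0035 (siSelT-5).

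**Figure D2:**
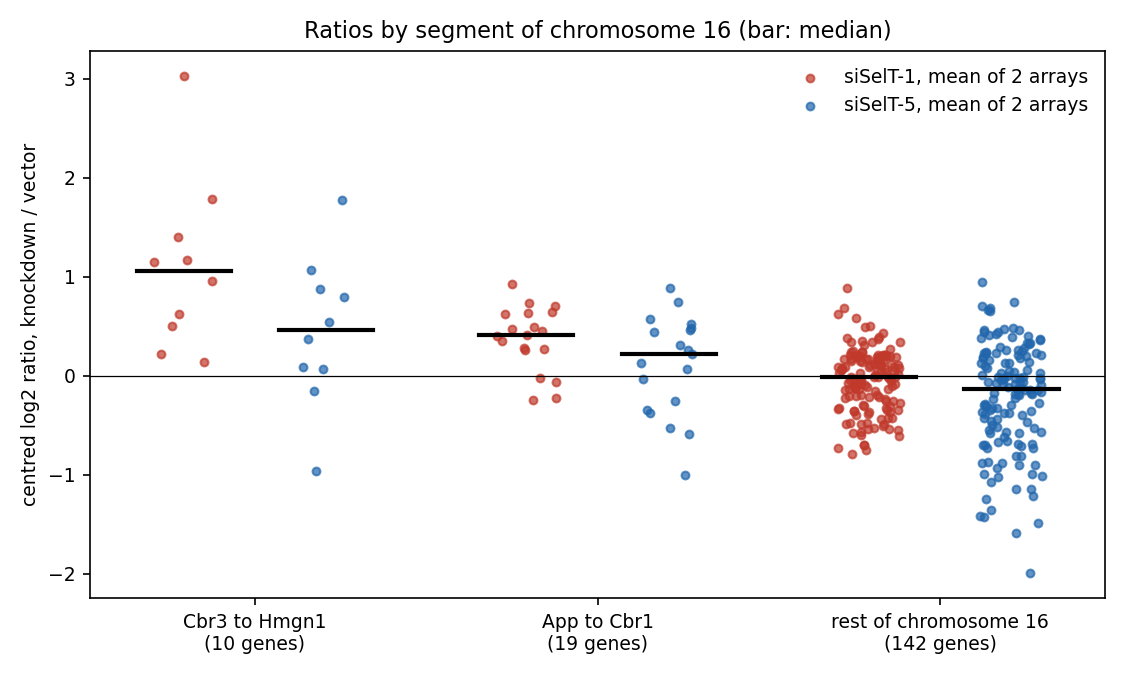
Mean log2 ratio of each gene (points, mean of 2 arrays, centred) with siSelT-1 (red) and siSelT-5 (blue) in 3 segments of chromosome 16, with bars at the medians. The Cbr3 to Hmgn1 medians are 1.06 and 0.46, those of App to Cbr1 0.41 and 0.22, and those of the rest of the chromosome -0.02 and -0.14.

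Within App to Cbr1 the antioxidant gene Sod1 had the highest mean with each construct. Sod1 (Entrez Gene 20655) had 0.94 and 0.91 with siSelT-1 and 0.73 and 1.05 with siSelT-5, and the constructs overlapped (difference 0.04, 95% interval -0.39 to 0.46). Cct8, a subunit of the cytosolic chaperonin, had 0.60 and 0.82 with siSelT-1 and 0.47 and 0.42 with siSelT-5. Both were thus above the centre with each construct, as were the mitochondrial ATP synthase gene Atp5o (0.73 and 0.55, 0.48 and 0.67) and Smim11 (0.71 and 0.55, 0.41 and 0.64), which are not members.

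App, Adamts1 and Adamts5 are genes of secreted and surface proteins. App, the amyloid precursor, had 0.35 and 0.55 with siSelT-1 and 0.18 and 0.08 with siSelT-5, as the mean of 3 probes of which one was negative with siSelT-5 (-0.14 and -0.49). Adamts1, a protease of proteoglycans, had 0.45 and 0.49 with siSelT-1 and 0.70 and 0.79 with siSelT-5 as the mean of 2 probes, so that siSelT-5 lay above. A further Adamts1 probe, with no siSelT-1 value, stood at 0.52 and -0.45 with siSelT-5. Adamts5, the neighbour and relative of Adamts1, had 0.16 and 0.36 with siSelT-1 and 0.65 and 0.31 with siSelT-5 on one probe. Another Adamts5 probe, with no siSelT-1 value, had -2.03 and -2.74 with siSelT-5. The means of both genes, from probes measured on all arrays, were higher with siSelT-5, and the arrays of the constructs overlapped for Adamts5.

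The 4 cytokine receptor genes of the interferon and interleukin-10 family lie side by side and did not share a direction. Ifngr2, a chain of the interferon gamma receptor, had 0.39 and 0.31 with siSelT-1 and 0.14 and 0.47 with siSelT-5. Its 2 probes differed, one at 0.68 and 0.53 with siSelT-1 and one at 0.09 and 0.08. Ifnar1, a chain of the type I interferon receptor, had -0.03 and 0.84 with siSelT-1 and -0.44 and -0.73 with siSelT-5, a spread within siSelT-1 wider than for any other gene of the region. The other type I chain, Ifnar2, had -0.90 and 0.05 with siSelT-5 alone. Il10rb, the shared chain of interleukin-10 type receptors, was low throughout, at -0.76 on siSelT-1 replicate 2 and at -1.46 and -1.06 with siSelT-5. Of 13 genes of the signalling path downstream and their partner receptors, 4 were measured on all arrays. Of these Jak1 and Ifngr1 were lower over both constructs (-0.73 and -0.50, limma adjusted p = 0.00630 and 0.0118), and 0 were higher.

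The other members of this segment had mixed values, and several had probes that disagreed. Tiam1, an activator of the GTPase Rac, had 0.74 and 0.74 with siSelT-1 and -0.13 and -0.93 with siSelT-5. Tmem50b, a membrane protein, had 0.39 and 0.58 with siSelT-1 and 0.31 and -0.18 with siSelT-5 on 1 of its 3 probes. The 2 other probes, without a value on siSelT-1 replicate 1, were negative with siSelT-5, at -0.78 and -0.54 and at -0.50 and -0.60. Gart, an enzyme of purine synthesis, had 0.49 and 0.06 with siSelT-1 and -0.42 and -0.32 with siSelT-5. Its other probe, measured on 3 arrays, stood at -0.04 and 0.09 with siSelT-1 and at -0.66 on siSelT-5 replicate 2. Son, a splicing cofactor, had -0.23 and -0.27 with siSelT-1 and 0.18 and 0.34 with siSelT-5 on 1 of its 3 probes. Another Son probe stood at -0.65 and -1.77 with siSelT-5 alone, and a further one at -0.21 and 0.35 with siSelT-1 alone, so the probes did not share a direction. The deubiquitinase gene Usp16 (-0.32 and -0.13 with siSelT-1, 0.13 and -0.64 with siSelT-5) and Paxbp1 (-0.09 and -0.04, -0.07 and -0.63) were not raised. Rcan1 was the mean of 2 probes that disagreed, at 0.77 and 0.69 against -0.23 and -0.11 with siSelT-1.

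For 10 members the arrays gave siSelT-5 values alone, and these were low. Bach1 had -2.62 and -2.36 on one probe and -1.47 on siSelT-5 replicate 1 on another. Urb1, of ribosome assembly, had -1.05 and -1.76, Donson, of DNA replication, -1.41 and -2.46, and Itsn1, an endocytic scaffold, -1.22 and -1.83. Together the 10 genes had 21 siSelT-5 values, of which 20 were below 0. Cryzl1, a quinone reductase relative with a single siSelT-1 value of 0.20, had -0.38 and 0.37 on the same probe.

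These low values accompany a feature of the whole table. Over all probes the median siSelT-5 ratio was -1.26 where neither siSelT-1 array had a value (13017 probes), -0.39 where 1 had and -0.04 where both had (7386 probes). For the members' probes the same medians were -1.30 (25 probes), -0.55 (9 probes) and 0.26 (33 probes). Member probes without siSelT-1 values thus had a median close to that of such probes on the whole array, and the part of this feature in the members' low ratios was not tested.

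**Figure D3:**
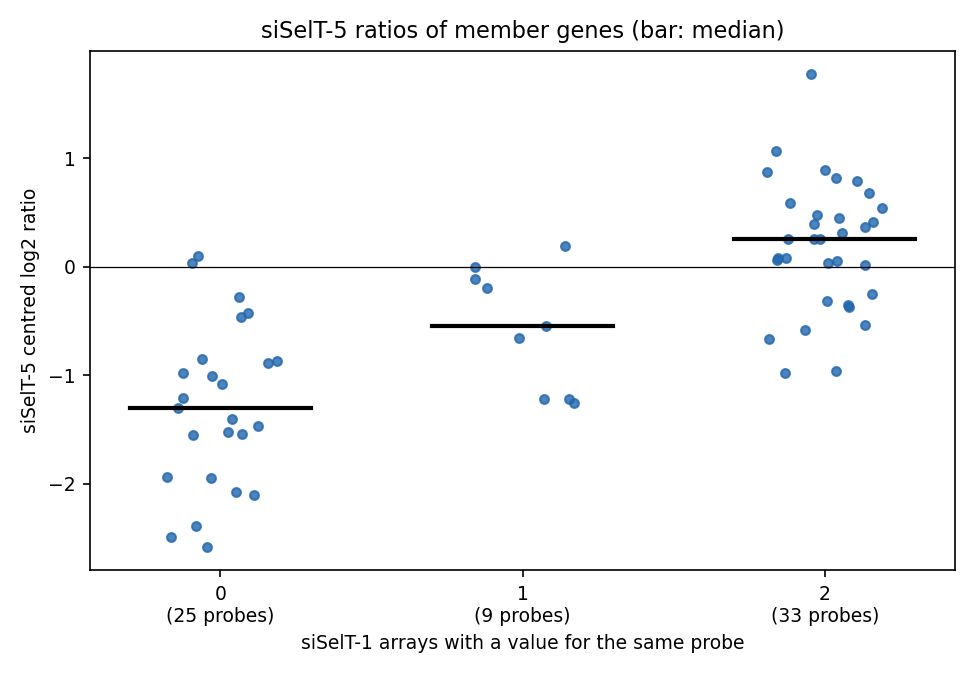
Mean centred siSelT-5 log2 ratio (vertical axis) of each member probe with a siSelT-5 value, by how many of the 2 siSelT-1 arrays had a value for that probe (horizontal axis). Bars are medians, at -1.30, -0.55 and 0.26 from left to right.

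The contrast of siSelT-1 with siSelT-5 asks whether the constructs differed at these genes. It was fitted with limma over all 4754 genes, and 0 of 24 members passed at an adjusted p under 0.05 (range 0.0755 to 0.952), beside 3 genes (0.0631%) of the whole array, 1 higher (0.0210%) and 2 lower (0.0421%). Tiam1, Gart, Morc3 and Ttc3 lay above the centre on both siSelT-1 arrays and below it on both siSelT-5 arrays, beside 6.92% of all genes. At an unadjusted p under 0.05 it was 10 of 24 members, against 25.8% of all genes. The size and sign of these differences rested on the centring, which moves all of them by one constant: by -0.25 without centring and by -0.59 with each array centred on all its own values. The siSelT-1 mean was the higher one for 21 of 24 members, for 14 without centring and for 8 with all-values centring. At all-values centring 9 members passed, 2 higher and 7 lower, beside 2512 of all 4754 genes, 39 higher and 2473 lower. Nothing is read from these 9 members. Both siSelT-1 arrays lay above both siSelT-5 arrays for 13 members (28.3% of all genes) and below them for 2, Adamts1 and Son (32.0%). With all-values centring it was 4 above and 12 below, and no shares over all genes were counted at that centring. Within Cbr3 to Hmgn1 the siSelT-1 arrays lay above for 7 of 10 genes and below for 0, with a median difference of 0.61, against 0.10 for App to Cbr1 and -0.01 over all genes. With all-values centring 3 of the 10 lay above and 3 below, and the median difference was 0.02, against -0.48 for App to Cbr1. Overlap was seen for Pigp, Dyrk1a and Hmgn1. How many members passed also depended on which arrays were used, as did the number over all genes. The spread between arrays, as a root mean square SD over genes, came to 0.148 with siSelT-1 and to 0.345 with siSelT-5, which the fit pools.

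**Figure D4:**
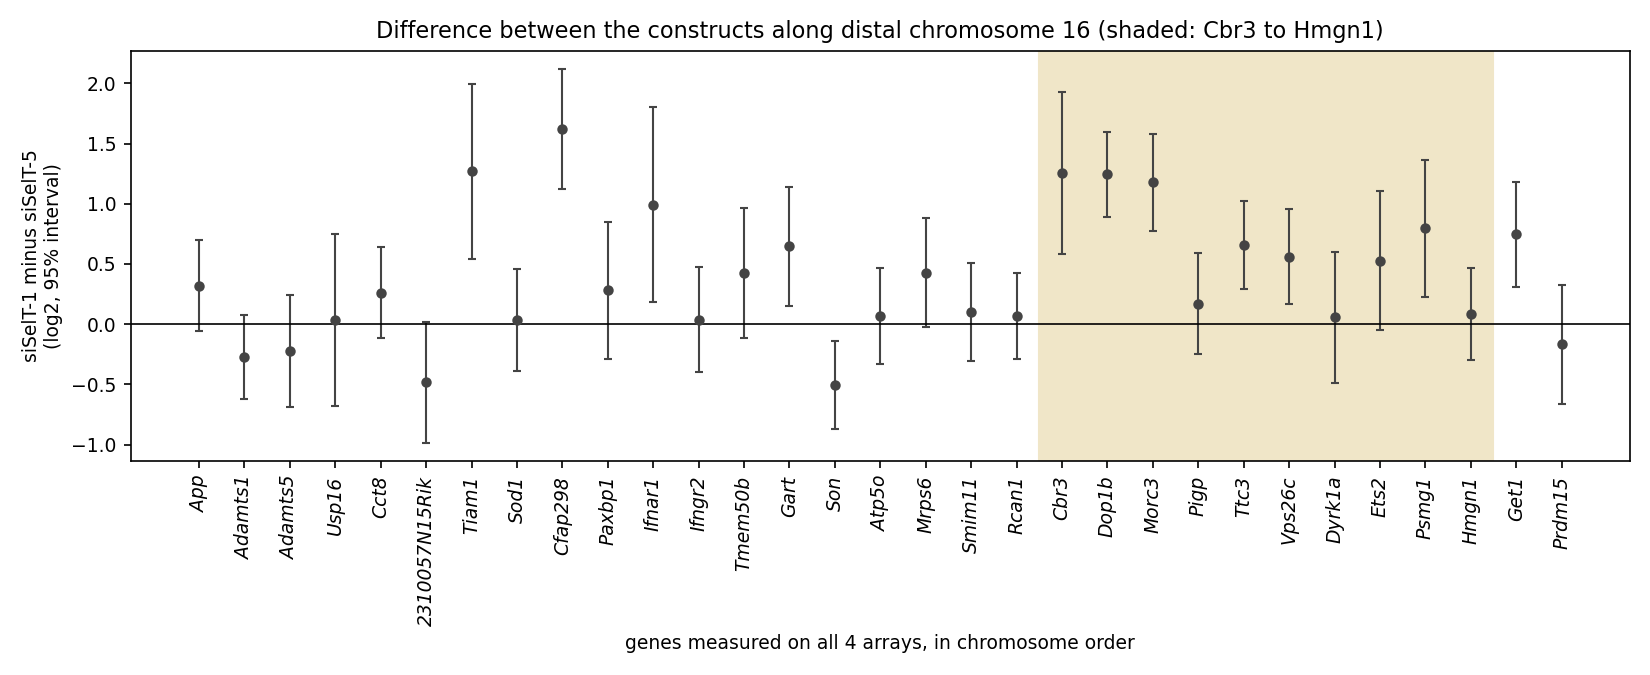
Difference siSelT-1 minus siSelT-5 (log2, points) with its 95% interval from limma (bars) for the 31 genes of the region in chromosome order, shading Cbr3 to Hmgn1. Intervals of 6 of the 10 shaded genes lie above 0, beside 13.0% of all genes, and 0 members passed after adjustment over 4754 genes. The differences rest on the centring: with each array centred on all its own values, 5 of the 10 turn negative.

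The ratios against vector chose the members, so no calls on them are given for members. Over all 4754 genes, 976 were higher (20.5%) and 1039 lower (21.9%) over both constructs, but 2172 and 382 without centring and 2397 and 320 with each array centred on all its own values. With siSelT-1, 182 were higher (3.83%) and 241 lower (5.07%), and 490 and 160 without centring. With siSelT-5, 915 were higher (19.2%) and 949 lower (20.0%), 2264 and 299 without centring, and 3012 and 169 with the all-values centring. Without either siSelT-1 array 0 genes passed over both constructs or for siSelT-1. Of the genes that are no members, Get1 rose over both constructs (limma adjusted p = 0.0130) and with siSelT-1 (0.0309), not with siSelT-5 (0.557), while Prdm15 fell over both (0.0283).

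Relatives and partners of the members elsewhere in the genome did not show one direction. Lists of such genes, chosen with earlier results of these data known, are given as counts over both constructs (limma, adjusted p under 0.05) beside a median of -0.02 over all genes. A count is for the mean of both constructs and does not show that they shared a change. Of 6 tested carbonyl and NRF2-type reductases outside chromosome 16, 3 were higher, Dcxr at 0.81, Akr1a1 at 0.81 and Cbr2 at 0.79, and Nqo1 was lower at -0.31 (median 0.53). The core-binding partner of Runx proteins, Cbfb, was the single ETS or RUNX list gene tested and rose by 0.70. Of 5 HMGN and chromatin assembly partners 2 were higher, Rbbp4 at 0.59 and Hmgn2 at 0.31, and 0 lower (median 0.18). Of 7 calcineurin, NFAT and DYRK1A substrate genes 2 were higher, cyclin D1 (Ccnd1) at 0.53 and Dyrk2 at 0.43 (median 0.34). Of 6 APP processing genes 1 was higher, Psenen at 0.37, and 1 lower, Adam10 at -0.68 (median -0.06). Of 8 retromer and endocytosis partners 0 were higher and Vps35 was lower at -0.33 (median -0.00). Of the 4 tested genes Sod2, Sod3, Ccs and Cat 0 passed in either direction (adjusted p 0.0568 to 0.919, median 0.13). Among markers of other cell types 4 were tested, and the endothelial genes Pecam1 and Tie1 were higher (0.43 and 0.45) and the macrophage gene Lyz2 lower (-0.47). Several of these changes rested mainly on 1 construct. The siSelT-1 and siSelT-5 means were 1.07 and 0.11 for Rbbp4, -0.07 and 0.69 for Hmgn2, and 0.19 and 0.88 for Ccnd1. They were -0.12 and -1.24 for Adam10 and 0.74 and 0.13 for Pecam1. Dcxr, Akr1a1, Cbr2 and Cbfb were raised in both constructs.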

How the data were processed

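Log2 ratios of 4 two-colour oligonucleotide arrays were deposited by the authors as a value table, with 1 value per probe and array. Base, direction and normalization within the array are not given in the sources used here, and base 2 and knockdown over vector are readings from the size of the values and the sample titles. Of 22534 probes, 18129 had 1 gene symbol in the platform annotation, 140 several and 4265 none. Of the first, 18041 were matched by Entrez Gene ID to RefSeq (GRCm38.p6), which gave gene order, and 0 symbols changed. Each array was centred on its median over the 7038 probes measured throughout the 4 arrays, and such probes were averaged per gene, giving 4754 genes.

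Contrasts were fitted over all genes by lmFit and eBayes of limma 3.58.1, under R 4.3.3 (one mean per construct, 2 residual degrees of freedom), with Benjamini-Hochberg adjustment and a threshold of 0.05. The fit was tested on simulated data. The number of arrays, 2 per construct, limits the precision. The members and all gene lists were chosen with earlier results of these data known. The text names each member with a value, each other gene on chromosome 16 measured from App to Prdm15 where a result turns on it, and up to 4 genes per further list with the smallest unadjusted p over both constructs. Alternatives covered centring, scale, probe summary, missing values, moderation, replicate block, single arrays, thresholds and the definition of a raised stretch. Signal strength and array layout were not used here.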

Additional observations from a re-analysis of the deposited data

Results flagged for a closer look

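At 6 of the 31 genes of the region measured on all arrays, both siSelT-1 arrays lay on one side of the array centre and both siSelT-5 arrays on the other. The difference siSelT-1 minus siSelT-5 was 1.27 for Tiam1, 1.62 for Cfap298, 0.65 for Gart, -0.51 for Son, 1.18 for Morc3 and 0.66 for Ttc3. Son alone had siSelT-1 below and siSelT-5 above, on 1 of its 3 probes. With all-values centring the difference was 0.06 for Gart and 0.07 for Ttc3. In limma, adjusted over 4754 genes, 0 of the 6 passed. The adjusted p was 0.111 for Tiam1, 0.0755 for Cfap298, 0.136 for Gart, 0.130 for Son, 0.0768 for Morc3 and 0.109 for Ttc3. Each unadjusted p was under 0.05, as it was for 25.8% of all genes. The genes were picked for lying on opposite sides, which favours a small p, so nothing is read from this. Over the whole array 329 genes (6.92%) had siSelT-1 above the centre and siSelT-5 below it on both arrays. That share leaves out the direction seen for Son, for which no share was counted. Cfap298, which encodes a protein of cilia, lies beside the members but is not one, and had 0.60 and 0.63 with siSelT-1 and -0.77 and -1.23 with siSelT-5.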

How the results depend on the processing

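With 2 arrays per construct, no knockdown check, no dye swap and no deposited intensities, precision and direction are limited. The cause of the changes below was not tested, except that settings with fewer arrays, another threshold or other genes change the counts by construction. The count for siSelT-1 minus siSelT-5, 3 genes, was 2512 with all-values centring, 15 after division by the median absolute deviation, 0 with a value on at least 1 array of each construct, and 0 and 103 at adjusted p under 0.01 and 0.1. Without single arrays it ran from 0 to 1761. Members passing, 0, were 9, 2 and 2 with all-values centring, deviation scaling and the threshold of 0.1, and 0 to 12 without single arrays. A fit with a replicate block passed 76 genes and 3 members (Cbr3, Dop1b and Morc3). Against vector the blocked counts were 2131 for both constructs, 539 for siSelT-1 and 2026 for siSelT-5. The arrays share only a number: deviations of same-numbered arrays correlated at 0.0758 across genes, so the block is no pairing by design. All-values centring, which takes in the low siSelT-5 probes, made 16 of the region's 26 positive differences negative, of which 6 passed: Sod1 -0.55, Ifngr2 -0.55, Atp5o -0.52, Smim11 -0.48, Rcan1 -0.52 and Hmgn1 -0.50. That centring moves every difference by -0.59, and 2473 of all 4754 genes passed as lower, so nothing is read from these 6.

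Against vector, the count for both constructs (2015) was 741 at 0.01 and 0 to 2999 without single arrays. For siSelT-1 (423) it was 650 without centring, 1588 with deviation scaling, 33 with a value on at least 1 array, 1883 with array weights, 0 and 1080 at 0.01 and 0.1, and 0 to 2140 without single arrays. For siSelT-5 (1864) it was 3181 with all-values centring, 1060 with array weights, 450 at 0.01 and 585 to 2742 without single arrays. The longest raised stretch that held a member was one of 4 genes with siSelT-1. It was 15 with deviation scaling or any mean above 0, and 4 without either array. With a value on at least 1 array it was 3, from Tiam1 to Cfap298. With siSelT-5 the longest stretch that held a member (2 genes) was 4 without centring, with deviation scaling, at any mean above 0 or with 1 interruption allowed. It was 7 with all-values centring, 1 at a mean of 1 or with a value on at least 1 array, and 2 to 3 without single arrays.

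Segment medians for siSelT-1 without centring were 0.55 (App to Cbr1), 1.20 (Cbr3 to Hmgn1) and 0.12 (rest of the chromosome). With deviation scaling they were 1.75, 4.40 and -0.061 deviations, and with a value on at least 1 array 0.28, 0.79 and -0.055. Single probes gave 0.91 for Cbr3 to Hmgn1, and the rest was 0.00115 with all-values centring and -0.053 as a mean. Without single arrays they ran from 0.39 to 0.49, from 1.00 to 1.11 and from -0.036 to -0.024. For siSelT-5 the same 3 medians were 0.61, 0.85 and 0.26 without centring, 0.82, 1.06 and 0.47 with all-values centring, 0.58, 1.16 and -0.34 with deviation scaling, 0.28, 0.26 and -0.12 for single probes, and -0.0035, 0.20 and -0.19 with a value on at least 1 array. As means, App to Cbr1 was 0.10 and the rest -0.22. Without single arrays they ran from 0.15 to 0.18, from 0.43 to 0.62 and from -0.12 to -0.10. Where all 3 medians are given, Cbr3 to Hmgn1 stood highest, except with single probes for siSelT-5, where App to Cbr1 did.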

Other observations

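Other mouse genes whose human counterparts lie on chromosome 21 sit on chromosomes 10 and 17. Of 31 listed on chromosome 10, 15 were measured on all arrays, and 7 were higher and 2 lower over both constructs (limma, adjusted p under 0.05), with a median of 0.21. By construct the median was 0.25 with siSelT-1 and -0.06 with siSelT-5. Of 18 listed on chromosome 17, 3 were measured on all arrays and all 3 were higher, with a median of 0.35 (0.29 with siSelT-1 and 0.63 with siSelT-5). Over all 4754 genes 20.5% were higher and 21.9% lower, with a median of -0.02. Of 20 listed telomeric of Hmgn1 on chromosome 16, the 2 measured on all arrays were Get1 and Prdm15.

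Genome-wide, over genes measured on all arrays, the raised stretch of Ets2, Psmg1, Hmgn1 and Get1 was the longest with siSelT-1, at 4 genes. Of the 6 stretches of 3 or more genes, 3 held a member. The ratios ranked here are those that singled out the run, so this is a description. With a value on at least 1 array of each construct the longest stretch with members was one of 3 genes, Tiam1 to Cfap298. With siSelT-5 the longest was one of 7 histone genes on chromosome 13, from H2bc15 to H2bc9, and 92 stretches of 2 or more genes were found, of which 1 held members. Both constructs shared 10 stretches of 2 genes. Cbr3 and Dop1b were one, and another held Dcxr and Cbr2, neighbouring carbonyl reductase genes on chromosome 11. With any mean above 0 the 15 genes from Atp5o to Get1 were the longest stretch with siSelT-1, ahead of 11 on chromosome 11 from Naglu to Vat1. This genome-wide comparison at any mean above 0 was added after the values were seen.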
